A study of Mus musculus with 20 samples.

Results

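The genes described here encode the proteins of the mitochondrial ribosome, in the livers of mice with and without the thrombospondin-1 (TSP-1) gene and with and without a diet that causes steatohepatitis. They were taken as every protein-coding row of the expression table whose symbol begins with Mrpl or Mrps followed by a number, which gave 77 of the 38924 genes listed, 47 named Mrpl for the large subunit and 30 named Mrps for the small subunit. Liver RNA was sequenced from 20 mice in 4 groups of 5. NDWT were wild-type (WT) mice (C57/BL6 in the labels, C57BL/6J in the study's methods) on normal diet, and NDKO were TSP-1 null mice on normal diet. HFWT were WT mice on CDAHFD, and HFKO were TSP-1 null mice on CDAHFD. CDAHFD is a high-fat diet of defined amino acids that lacks choline and, per the study, is limited in methionine. Both diets were fed for 12 weeks. The labels give no age, and the study's methods describe young males that were acclimated before the diets began. The null mice came from an established line with a constitutive loss of Thbs1, the gene for TSP-1, so every cell type is affected, and the labels do not say that WT and null mice were littermates. The labels name no transgene or Cre.

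Mitochondria keep their own ribosomes, which translate only the few mRNAs of the mitochondrial genome, all of them for core subunits of the respiratory chain and ATP synthase. The RNA of these ribosomes comes from the mitochondrial genome, but every one of their proteins is encoded in the nucleus, made in the cytosol and imported. About as many of the proteins have a counterpart in bacterial ribosomes as were added during the evolution of mitochondria, and most are needed in fixed amounts. Hepatocytes are rich in mitochondria, and defects of single mitoribosomal proteins in people cause disorders of oxidative phosphorylation that can include the liver.

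The promoters of these genes are known for binding sites of nuclear respiratory factor 1 (NRF1), ETS factors such as GABP, and YY1. The windows searched were those of RefSeq on GRCm38.p6, each 300 bases long (250 before and 50 after the gene's start), on both strands, and 67 of the 77 members had 73 windows. The NRF1 letters GCGCANGCG were in 20.5% of the members' windows and in 6.25% of the 32851 windows of all genes. The ETS letters CCGGAAG were in 32.9% of the members' windows against 8.86% of all, and the YY1 letters AAGATGGCG in 11% against 1.40%. Matches of different motifs can overlap, since the ETS and YY1 letters can share AAG. At least 1 of these 3 motifs was in the windows of 40 members, or 54.8% of their windows against 14.8% of all. Other letters differed less as a ratio, though not always in percentage points. GGGCGG, the core of an Sp1 site, was in 52.1% against 35.7%, the E-box CACGTG in 9.59% against 7.15%, and TATAAA in 6.85% against 13.6%. These are matches of letters and not measured binding. The 10 members without a window are Mrpl4, Mrpl13, Mrpl15, Mrpl19, Mrpl38, Mrpl54, Mrps28, Mrps34, Mrps35 and Mrps36-ps1.

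The 250 bases before the start are shown for 6 members, with NRF1 and ETS letters in capitals. They were chosen for results given below or, for Mrpl45, for its matches. Mrpl34 and Mrpl17 had the 2 lowest log2 fold changes on CDAHFD in WT among members with a window, Mrpl45 carries a pair of NRF1 matches, Mrps22 and Mrps36 were lower in NDKO, and Mrpl52 had the highest level. Mrpl34 (chr8:71464676-71464925, plus strand) has an ETS match, Mrpl17 (chr7:105811088-105811337, minus strand) an ETS and 2 NRF1 matches, Mrpl45 (chr11:97315466-97315715, plus strand) 2 NRF1 matches, Mrps22 (chr9:98601680-98601929, minus strand) and Mrpl52 (chr14:54426659-54426908, plus strand) an ETS match each, and Mrps36 (chr13:100744660-100744909, minus strand) none of these letters.
Mrpl34: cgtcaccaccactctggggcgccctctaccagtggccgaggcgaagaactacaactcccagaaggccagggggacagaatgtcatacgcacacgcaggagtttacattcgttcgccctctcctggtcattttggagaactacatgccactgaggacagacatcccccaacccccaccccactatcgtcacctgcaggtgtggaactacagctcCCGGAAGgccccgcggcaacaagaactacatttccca
Mrpl17: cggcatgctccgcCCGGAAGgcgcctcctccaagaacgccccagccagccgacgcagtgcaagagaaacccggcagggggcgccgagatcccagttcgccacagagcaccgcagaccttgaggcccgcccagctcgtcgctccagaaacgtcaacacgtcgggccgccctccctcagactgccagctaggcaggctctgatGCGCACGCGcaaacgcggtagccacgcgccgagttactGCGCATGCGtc
Mrpl45: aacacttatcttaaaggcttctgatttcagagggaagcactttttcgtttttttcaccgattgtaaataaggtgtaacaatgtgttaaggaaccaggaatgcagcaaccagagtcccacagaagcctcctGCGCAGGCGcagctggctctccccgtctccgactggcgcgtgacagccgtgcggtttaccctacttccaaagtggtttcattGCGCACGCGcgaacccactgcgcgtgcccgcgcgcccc
Mrps22: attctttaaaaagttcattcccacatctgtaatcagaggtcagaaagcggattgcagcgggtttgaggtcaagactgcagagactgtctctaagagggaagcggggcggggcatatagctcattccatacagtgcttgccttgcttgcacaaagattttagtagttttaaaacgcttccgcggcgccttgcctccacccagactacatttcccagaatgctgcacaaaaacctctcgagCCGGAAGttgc
Mrpl52: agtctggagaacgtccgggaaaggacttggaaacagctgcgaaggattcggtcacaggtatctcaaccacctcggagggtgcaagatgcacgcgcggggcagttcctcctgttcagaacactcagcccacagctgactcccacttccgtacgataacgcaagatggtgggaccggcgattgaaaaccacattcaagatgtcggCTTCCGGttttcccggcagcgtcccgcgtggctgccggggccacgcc
Mrps36: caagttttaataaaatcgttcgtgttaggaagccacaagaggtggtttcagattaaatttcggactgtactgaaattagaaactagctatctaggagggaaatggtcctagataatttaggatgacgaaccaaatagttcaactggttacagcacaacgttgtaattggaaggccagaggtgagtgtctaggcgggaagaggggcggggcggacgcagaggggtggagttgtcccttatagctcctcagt

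Expression was deposited as FPKM, the fragments of a gene scaled by its length and by the library's total of fragments assigned to genes. Between 15641545 and 23276322 fragments per library stood behind the values. The Thbs1 mRNA did not follow the genotype labels on normal diet: it was at 0.197 ± 0.103 FPKM (SD, n = 5) in NDWT and 1.30 ± 0.39 in NDKO, and on CDAHFD at 4.62 ± 1.22 in HFWT and 3.44 ± 0.547 in HFKO. A gene's FPKM sums all its exons, so RNA from outside a deleted stretch is still counted and the value cannot test the labels. The mitochondrial tRNA genes mt-Tg and mt-Tr were listed at 0 in all 10 libraries labelled null and above 0 in all 10 labelled WT, so the libraries do fall into 2 sets along the labels. This split rests on few fragments: mt-Tg held 3 to 22 per library in NDWT and 4 to 10 in HFWT, and mt-Tr 4 to 14 and 1 to 14. Every direction between genotypes below rests on the labels alone.

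Markers of most other cell types moved with the diet. On CDAHFD 10 of 10 stellate cell and myofibroblast markers were differentially expressed and higher in both genotypes, their summed FPKM going from 12.4 to 17.5 in NDWT and 12.2 to 15.3 in NDKO to 145 to 303 in HFWT and 129 to 243 in HFKO. Of 10 macrophage markers 9 were higher and 1 was lower in both genotypes, with sums of 174 to 253, 159 to 267, 1370 to 1770 and 787 to 1670 in NDWT, NDKO, HFWT and HFKO. T and B cell markers were higher in 9 of 10 in both genotypes, as were all 5 tested cholangiocyte and the 2 tested neutrophil markers. Of 12 hepatocyte markers 4 were lower and 1 higher in WT, and 7 lower and 1 higher in the null. Of 7 endothelial markers 1 was higher in WT and 2 in the null. Of 5 tested erythroid markers 1 was lower in WT and 2 in the null. Of all genes tested below, 44.1% were higher and 4.62% lower in WT, and 41.9% and 4.00% in the null. Hepatocyte sums were 55400 to 58200 in NDWT, 60300 to 65800 in NDKO, then 38200 to 51000 in HFWT with 45000 to 59600 in HFKO, and no marker of these lists was at 0 in every library. The part of this change in cell make-up in the results below was not tested, and in RNA of whole liver fewer cells of a type and less RNA per cell cannot be told apart. Library HFWT5 stood apart in that the non-coding gene Gm26924 took 4.47% of its fragments, against at most 1.83% in any other library.

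Nearly all members were expressed. Genes with more than 0.5 FPKM in at least 5 libraries were tested, 14524 in all, and 75 members were among them, 46 Mrpl and 29 Mrps. Their mean FPKM over the 20 libraries ran from 1.40 to 69.5 with a median of 12.4, against a median of 4.11 over all tested genes. The members also varied less between mice of a group: the median within-group SD was 0.132 on the log2(FPKM + 0.1) scale, against 0.217 for all tested genes. The sets were not matched for level, either here or in the shares of confidence intervals given below. The part of the members' higher level in these differences was not tested. Gene models that were longer had lower FPKM (Spearman's rho = -0.73 across the 75 members, a description over genes that share the same libraries and whose FPKM is itself divided by length).

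Mrpl52, a mitochondria-specific large subunit protein, had the highest level, at 67.7 ± 5.67 FPKM (SD, n = 5) in NDWT, 58.3 ± 4.09 in NDKO, then 80.9 ± 7.33 in HFWT with 71.3 ± 2.56 in HFKO. Mrpl14 followed at 45.4 ± 8.16, 45.3 ± 5.8, 49.2 ± 4.78 and 44.5 ± 3.04 FPKM in the same order. Mrpl34 stood at 47.2 ± 8.34, 44.1 ± 5.24, 40.7 ± 2.11 and 42.3 ± 5.13 FPKM, and Mrpl42 at 41.2 ± 2.15, 40.9 ± 2.74, 45.4 ± 2.64 and 41.7 ± 1.54. These 3 genes overlapped within each group and cannot be ordered. Mrpl12, whose protein forms the flexible stalk that recruits translation factors, completed the 5 highest with means of 34.7 to 39.2 FPKM.

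At the low end, Mrps25 averaged 1.40 FPKM over all libraries, Mrpl19 2.06, Mrpl47 2.77, Mrps35 2.90 and Mrpl33 2.99. The exons of Mrps25 overlap those of Nr2c2 on the opposite strand over 69.8% of their bases, and those of Mrpl19 and Mrpl47 overlap opposite-strand genes over 36.0% and 24.17%. The strand setting of the counting is not given in the sources used here, so the values of these 3 genes are uncertain. In all, 10 members share more than 20% of their exon bases with another gene. Among them are Mrps34 (77.76%, with 36.97% on the same strand), Mrps18b (30.54%, opposite strand) and Mrps18c (23.23%, same strand). Their values are uncertain too, and overlap on the same strand is ambiguous under any strand setting.

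The untested members were Mrpl53 and Mrps36-ps1. Mrpl53 (chr6, a large subunit protein of the mitochondria-specific set) had 0 fragments in all 20 libraries. Its exons lie for 87.97% of their bases under another gene model, and reads that fall in more than 1 gene can be dropped in counting, so its 0 says nothing about its RNA. Mrps36-ps1 is typed as protein coding but named as a pseudogene of Mrps36, and it held 0 to 4 fragments per library, at most 0.409 FPKM.

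The first question was how the mitoribosomal genes answered to CDAHFD in WT livers. Most were slightly higher in FPKM, while the typical liver gene was higher by more. Of the 75 tested members 64 had a positive log2 fold change, where 81.5% of all tested genes did. Their median was 0.19, and the middle 9 in 10 lay between -0.08 and 0.55. The median over all tested genes was 0.53. Relative to that median, 70 of the 75 members were lower.

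Differentially expressed genes (DEGs) were those with a Benjamini-Hochberg FDR below 0.05 in limma and an absolute log2 fold change above 0.58. By this rule 3 members rose in WT, against 44.1% of all tested genes that rose, and 0 members fell, against 4.62%. At the FDR alone 37 members were higher (64.4% of all genes) and 1 was lower (8.73% of all genes), and at an unadjusted p below 0.05 limma gave 39 and 1 (65.7% and 9.26% of all genes). In 18 members every HFWT library was above every NDWT library, where 50.5% of all genes were so. For 64 members the 95% confidence interval of the log2 fold change lay wholly within ±0.58, which held for 25.3% of all tested genes.

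**Figure D1:**
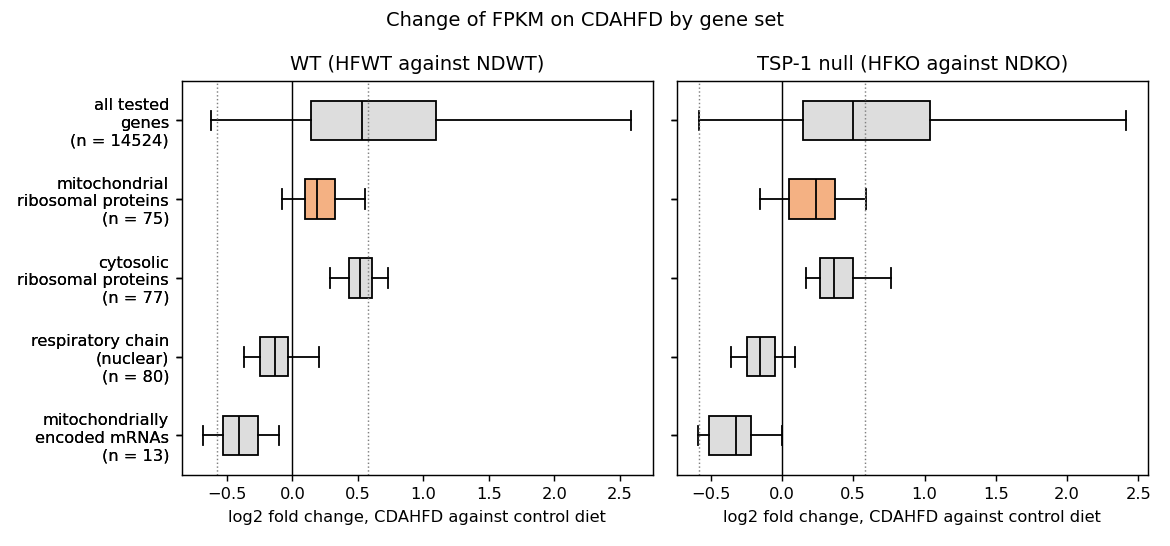
Spread of log2 fold changes on CDAHFD in WT (left) and TSP-1 null (right) for all tested genes and 4 gene sets; boxes give quartiles and median, whiskers the 5th and 95th percentiles, and dotted lines the fold threshold of 0.58. The members (orange) sit at a median of 0.19 in WT and 0.24 in the null, between the cytosolic ribosomal protein genes and the respiratory chain subunits.

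The members that rose in WT were Mrpl54, Mrpl40 and Mrps28. Mrpl54 (chr10:81264713-81266934, minus strand), a mitochondria-specific large subunit protein, was at 19.5, 20.0, 14.6, 16.5 and 15.1 FPKM in NDWT and 30.8, 29.2, 30.3, 34.5 and 28.5 in HFWT. Every HFWT value was above every NDWT value. The log2 fold change was 0.84 ± 0.12 (SE, n = 5 per group), a 1.79-fold difference with an FDR of 2.74e-06, and 0.31 relative to the median of all tested genes.

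Mrpl40 (chr16:18872018-18876767, minus strand), also mitochondria specific, lies in the region deleted in 22q11 deletion syndrome in people. It was at 9.06, 10.8, 7.68, 9.5 and 8.75 FPKM in NDWT and 15.1, 12.6, 15.3, 15.6 and 12.5 in HFWT, again without overlap. The log2 fold change was 0.63 ± 0.09 (FDR = 5.95e-06), or 0.10 relative to all genes. Mrps28 (chr3:8802146-8923918, minus strand), a small subunit protein with a bacterial counterpart, was at 22.5, 26.6, 20.5, 21.3 and 18.9 FPKM in NDWT and 31.9, 30.4, 36.0, 33.5 and 34.1 in HFWT. Its groups did not overlap either, and its log2 fold change was 0.60 ± 0.09 (FDR = 9.63e-06). Mrpl23 just missed the fold threshold, at 9.73 ± 0.105 FPKM in NDWT and 14.6 ± 0.78 in HFWT (log2 fold change 0.58, FDR = 3.02e-07), and Mrps15 followed with 0.54 (FDR = 2.94e-06). Without NDWT3 the Mrpl40 call was lost (log2 fold change 0.57), and that of Mrps28 was lost without NDWT3, NDWT5 or HFWT3 (lowest 0.55). Without HFWT2 the count of members that rose was 5.

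At the other end stood Mrpl15 (chr1:4773206-4785739, minus strand), a large subunit protein with a bacterial counterpart. It was at 9.55, 8.26, 8.34, 9.88 and 9.52 FPKM in NDWT and 6.42, 7.68, 7.41, 8.37 and 7.67 in HFWT. A single HFWT library reached into the NDWT range. The log2 fold change of -0.28 ± 0.08 passed the FDR (0.00574) but not the fold threshold, and it was the only member lower in WT at the FDR alone. Next came Mrpl34 (-0.20, FDR = 0.109), Mrpl17 (-0.15, FDR = 0.228), Mrps24 (-0.09, FDR = 0.387) and Mrpl47 (-0.08, FDR = 0.512), whose groups overlapped.

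**Figure D2:**
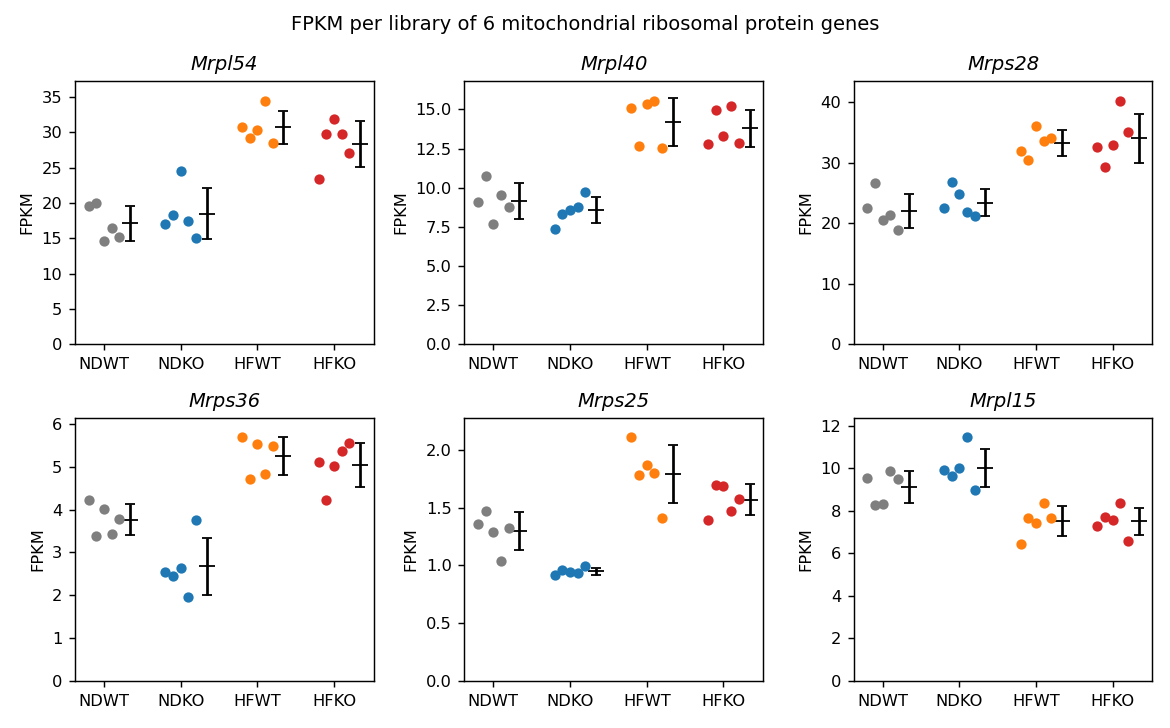
FPKM (vertical axis, from 0) in each of the 5 libraries of a group for 6 members, with the mean and SD as black bars. Mrpl54, Mrpl40 and Mrps28 are higher in HFWT and HFKO than on normal diet, Mrps36 and Mrps25 are lowest in NDKO, and Mrpl15 is lower on CDAHFD.

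The same question was asked in the null mice. The changes of the members were again small, with a median of 0.24 over the members against 0.50 over all tested genes, and 66 of 75 members were below the latter. Of the members 60 were positive and 15 negative (82.3% and 17.7% of all genes), and the middle 9 in 10 lay between -0.16 and 0.59. By the DEG rule 4 members rose, where 41.9% of all tested genes did, and 0 fell, where 4.00% did. At the FDR alone 46 were higher (64.0% of all genes) and 3 lower (7.69%), and at an unadjusted p below 0.05 limma gave 47 and 3 (65.5% and 8.07% of all genes). In 26 members every HFKO value was above every NDKO value (52.7% of all genes), and for 58 the interval lay within ±0.58 (26.9% of all genes).

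Mrps36 changed the most. Despite its name, its protein (also called KGD4) is now known as a part of the 2-oxoglutarate dehydrogenase complex of the citric acid cycle and not of the ribosome. Its FPKM was 2.55, 2.45, 2.65, 1.96 and 3.77 in NDKO and 5.12, 4.21, 5.02, 5.36 and 5.56 in HFKO, without overlap, for a log2 fold change of 0.92 ± 0.12 (FDR = 2.20e-06) or 0.42 relative to all genes. In WT it went from 4.21, 3.39, 4.01, 3.43 and 3.78 to 5.69, 4.71, 5.54, 4.84 and 5.50 FPKM (0.47, FDR = 0.00219), and NDKO was the lowest group.

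Mrpl40 and Mrpl54 rose in the null as they did in WT. Mrpl40 was at 7.38, 8.30, 8.59, 8.76 and 9.70 FPKM in NDKO and 12.8, 15.0, 13.3, 15.2 and 12.9 in HFKO, a log2 fold change of 0.69 ± 0.09 (FDR = 2.31e-06). Mrpl54 was at 17, 18.4, 24.6, 17.4 and 15.1 FPKM in NDKO and 23.4, 29.8, 31.9, 29.7 and 27.1 in HFKO. The highest NDKO library lay above the lowest HFKO library, and the log2 fold change was 0.63 ± 0.12 (FDR = 9.32e-05); it fell below the fold threshold (0.56) without NDKO5.

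The fourth member was Mrps25 (chr6:92169525-92184033, minus strand), a mitochondria-specific small subunit protein, at 0.921, 0.957, 0.943, 0.932 and 0.993 FPKM in NDKO and 1.40, 1.70, 1.69, 1.47 and 1.57 in HFKO. The log2 fold change was 0.66 ± 0.11 (FDR = 1.60e-05), and after quantile normalization it was -0.21 (FDR = 0.0677). Nr2c2, which covers most of its exons on the other strand, had 0.31 (FDR = 0.0157) in the same comparison, and its part in the Mrps25 value was not tested. Mrps28 had 0.53 (FDR = 4.18e-05) and did not pass the fold threshold.

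Mrpl15 was again lowest. Its FPKM was 9.90, 9.63, 10, 11.5 and 9 in NDKO and 7.26, 7.70, 7.57, 8.38 and 6.6 in HFKO, and every HFKO value was below every NDKO value (log2 fold change -0.41 ± 0.08, FDR = 0.00021). Mrpl47 (-0.26, FDR = 0.0377) and Mrps31 (-0.25, FDR = 0.0248) were the other members lower at the FDR alone, followed by Mrpl21 (-0.20, FDR = 0.0865) and Mrps35 (-0.14, FDR = 0.262). The FDR of Mrps31 was lost without NDKO1, NDKO3 or HFKO5, and that of Mrpl47 when any of 6 libraries was left out. Without NDKO2 the count of members that rose was 7.

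**Figure D3:**
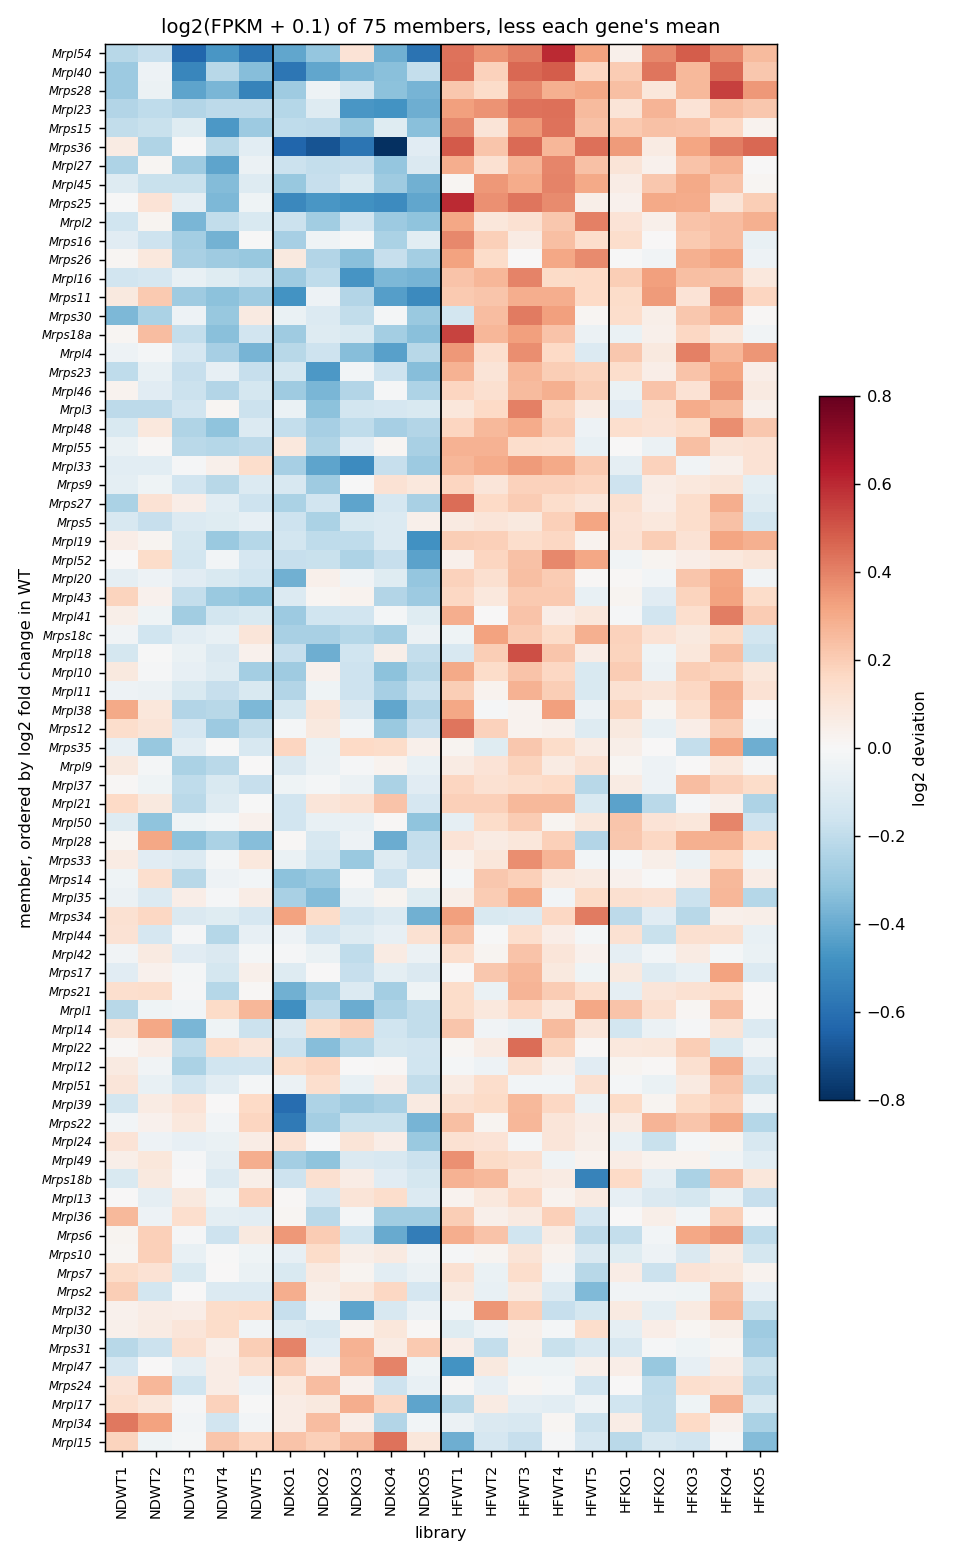
Deviation of log2(FPKM + 0.1) from each gene's own mean (color scale, log2 units, capped at both ends) for the 75 tested members (rows, ordered by log2 fold change in WT) in the 20 libraries (columns, 5 per group). The upper rows are redder in HFWT and HFKO, Mrps25 is blue in all 5 NDKO libraries and Mrps36 most strongly in 4 of them, and Mrpl15 in the last row is bluer on CDAHFD.

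The direction of these calls depended on the scaling. FPKM is relative to the total of all fragments in a library. When the libraries were instead scaled by the median of ratios, which centres the typical gene, the median of all tested genes on CDAHFD moved from 0.53 to 0.01 in WT and from 0.50 to 0.0026 in the null. The members' median became -0.35 in WT and -0.28 in the null. No member then rose, where 23.1% of all genes did in WT and 22.6% in the null. In WT 8 members fell, where 14.8% of all genes did, and 11 fell in the null, where 13.2% did. Quantile normalization gave 0 higher and 7 lower in each genotype, where 17.3% of all genes were higher and 17.6% lower in WT, and 16.7% and 15.1% in the null.

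The members that fell after this scaling were Mrpl15 (-0.81), Mrpl34 (-0.74), Mrpl17 (-0.69), Mrps24 (-0.63), Mrps31 (-0.61), Mrpl47 (-0.60), Mrpl30 (-0.60) and Mrpl32 (-0.59) in WT. In the null they were Mrpl15 (-0.92), Mrps31 (-0.77), Mrpl47 (-0.77), Mrpl21 (-0.72), Mrps35 (-0.64), Mrpl13 (-0.62), Mrps10 (-0.61), Mrpl17 (-0.60), Mrps2 (-0.59), Mrpl24 (-0.58) and Mrps24 (-0.58). Mrpl15 was negative under every scaling in both genotypes.

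Library by library, the members' median deviation minus that of all tested genes ran from 0.0918 to 0.205 in NDWT and from 0.102 to 0.197 in NDKO. On CDAHFD it ran from -0.228 to -0.124 (HFWT) and from -0.324 to 0.0147 (HFKO). The control libraries lay above every CDAHFD library. HFKO4 was the highest of the CDAHFD libraries and HFKO5 the lowest. Members took 0.187% ± 0.00903 (SD, n = 5) of all fragments in NDWT, 0.181% ± 0.00553 in NDKO, and on CDAHFD 0.211% ± 0.0073 in HFWT with 0.204% ± 0.0125 in HFKO.

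**Figure D4:**
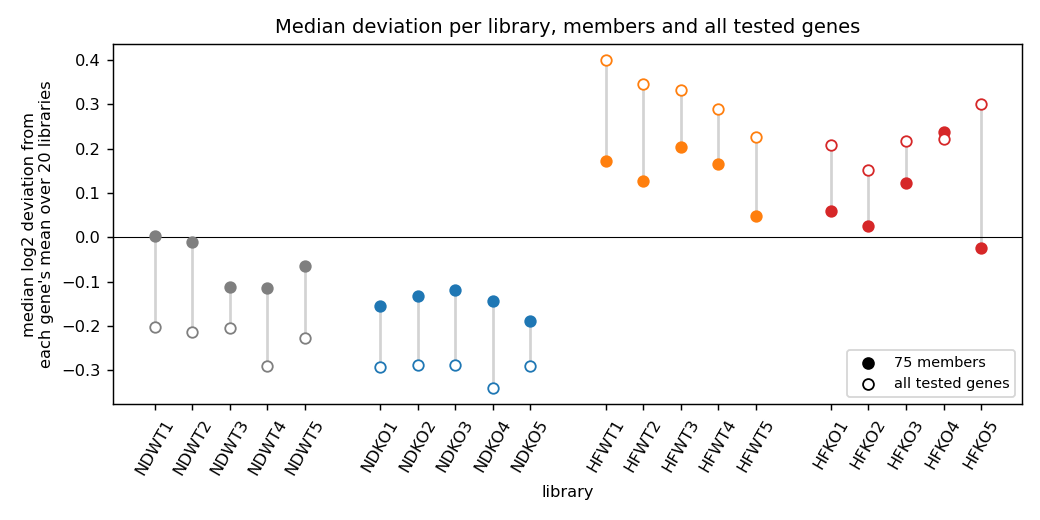
Median log2 deviation from each gene's mean over 20 libraries (vertical axis) for the 75 members (filled) and all tested genes (open) in each library (horizontal axis), colored by group. Members lie above the open points in all 10 control libraries and below them in 9 of the 10 on CDAHFD, HFKO4 being the exception.

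The members' place can be set beside the other genes of protein synthesis and respiration. The 77 tested cytosolic ribosomal protein genes had median log2 fold changes of 0.52 in WT, with 29 DEGs higher and 0 lower, and 0.37 in the null, with 12 higher and 0 lower. The 80 tested nuclear genes for respiratory chain subunits had medians of -0.13 and -0.15, with 1 DEG higher and 0 lower in each genotype. The 13 mRNAs of the mitochondrial genome, which are what the mitoribosome translates, had medians of -0.41 and -0.32, with 2 and 1 DEGs lower. Beside these counts, 44.1% of all tested genes were DEGs higher and 4.62% lower in WT, and 41.9% and 4.00% in the null. The medians are descriptions of lists and were not tested against each other.

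Within the mitoribosome all 4 structural classes had small positive medians. The 30 tested large subunit proteins with a bacterial counterpart had medians of 0.17 in WT and 0.22 in the null, with a range of -0.28 to 0.58 in WT, and 0 DEGs. The 18 mitochondria-specific large subunit proteins had 0.24 and 0.27, and all 18 were positive in both genotypes, Mrpl54 and Mrpl40 rising. The 16 small subunit proteins with a bacterial counterpart had 0.17 and 0.18, with Mrps28 rising in WT, and the 10 mitochondria-specific ones had 0.17 and 0.24, with Mrps25 rising in the null. After median of ratios scaling the medians of the members as a whole were negative, so these positive signs hold for FPKM as deposited.

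Some members have particular roles. Mrpl12 had log2 fold changes of 0.11 in WT and 0.04 in the null. Mrpl44, which has a ribonuclease III fold, had 0.15 and 0.08, and Mrps12, the protein at the decoding site in which streptomycin resistance arises in bacteria, 0.19 and 0.14. Of the 3 genes of the S18 family, which were not tested against each other, Mrps18b had 0.05 and 0.07, Mrps18c 0.23 and 0.29 (FDR = 0.0107 and 0.00214), and Mrps18a 0.35 and 0.27 (FDR = 0.0059 and 0.028). Mrps18a and Mrps30 (0.35 and 0.27) carry small subunit names but sit in the large subunit. Mrps6 had 0.02 and 0.16 with wide errors (FDR = 0.906 and 0.374). None of these passed the fold threshold.

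The change on CDAHFD was then set side by side in both genotypes. Across the 75 members the log2 fold changes in WT and null had a Pearson's r of 0.78, against 0.89 across all tested genes, as a description over genes measured in the same 20 libraries. In total 58 members were positive in both (76.6% of all genes) and 9 negative in both (12.9%), and 34 passed the FDR with the same sign in both, where 63.0% of all genes did. The 2 diet comparisons share no library. Whether they differed is the interaction, in which limma called 0 members, where 0.647% of all genes were called, and 7 members had an unadjusted p below 0.05, 4 with a higher and 3 with a lower log2 fold change in the null (6.97% and 8.17% of all genes). For 70 members the 95% interval of the difference lay within ±0.58, which held for 45.7% of all genes. The largest differences were those of Mrps36 (0.45, FDR = 0.23), Mrpl21 (-0.38, FDR = 0.228), Mrps22 (0.35, FDR = 0.218) and Mrps35 (-0.32, FDR = 0.313), chosen after their values were seen.

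**Figure D5:**
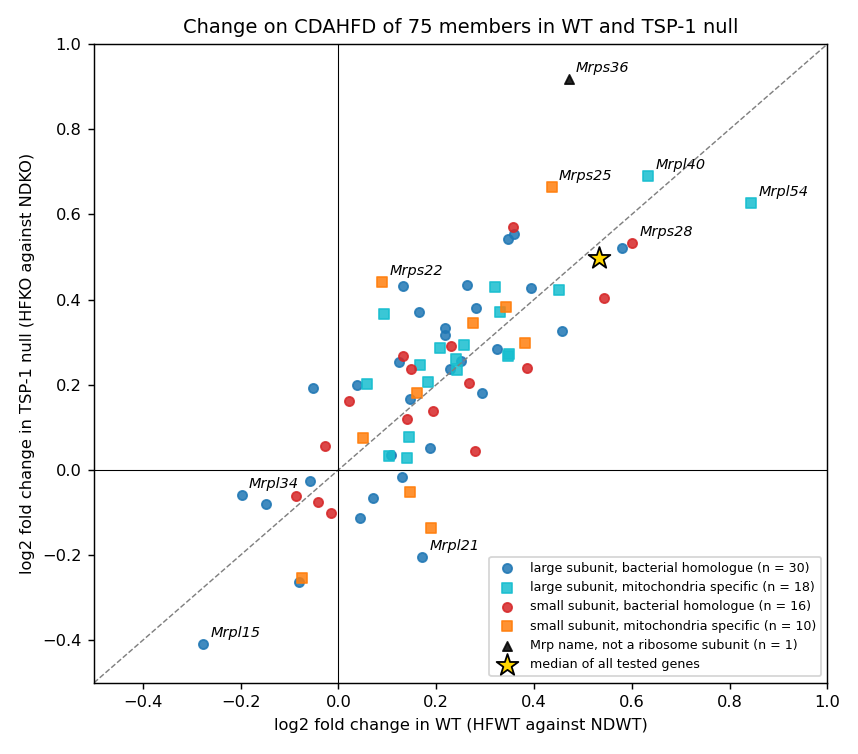
Log2 fold change on CDAHFD in WT (horizontal axis) and TSP-1 null (vertical axis) of the 75 tested members, colored by class, with the line of equal change and the median of all tested genes as a star. Most points lie below and to the left of the star, Mrps36 lies farthest above the line, and Mrpl15 is lowest on both axes.

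The next question was whether the genotype label went with a difference on normal diet. It did so for few members and by small amounts. Limma called 0 members as DEGs between NDKO and NDWT, where 4.77% of all tested genes were called, and the members' median log2 fold change was -0.06 against -0.07 for all genes. At the FDR alone 0 were higher (3.47% of all genes) and 9 were lower (9.60% of all genes), and at an unadjusted p below 0.05 the counts were 0 and 14 (7.92% and 19.4% of all genes). In 7 members the 2 groups did not overlap, against 9.03% of all genes. For 73 members the interval lay within ±0.58 (60.3% of all genes), the exceptions being Mrps25 and Mrps36.

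The 9 members lower at the FDR alone are named here after their values were seen. Mrps36 was lowest, with the FPKM given above (log2 fold change -0.50 ± 0.12, FDR = 0.0115). NDKO5, at 3.77 FPKM, lay among the NDWT libraries, the other 4 NDKO libraries were below all of them, and without NDKO5 the change was -0.63 and became the only DEG among the members. Mrps25 was at 1.36, 1.48, 1.29, 1.04 and 1.33 FPKM in NDWT, above all 5 NDKO libraries (-0.41 ± 0.11, FDR = 0.0163).

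Mrps22, a mitochondria-specific small subunit protein with an ETS match in its promoter, was at 9.14, 9.48, 9.82, 9.13 and 10.5 FPKM in NDWT and 6.23, 7.66, 8.20, 8.20 and 7.14 in NDKO, without overlap (-0.36 ± 0.10, FDR = 0.0178). Mrpl33, the counterpart of bacterial L33, was at 2.78, 2.77, 2.92, 3.04 and 3.25 FPKM in NDWT and 2.44, 2.17, 2.05, 2.59 and 2.40 in NDKO, also apart (-0.33 ± 0.07, FDR = 0.00653). The others were Mrpl1 (-0.34, FDR = 0.0192), Mrpl39 (-0.30, FDR = 0.0421), Mrpl49 (-0.27, FDR = 0.0241), Mrpl16 (-0.22, FDR = 0.0224) and Mrpl52 (-0.21, FDR = 0.0494). After median of ratios scaling only Mrps36, Mrps25 and Mrpl33 of these 9 kept an FDR below 0.05. These 3 also kept it when any 1 library was left out. Among the other processing settings Mrps25 always kept it, while Mrps36 and Mrpl33 each lost it in 1. Mrpl52 lost it in 15 of the 20 leave-outs and Mrpl39 in 11. It was lost for Mrpl49 without NDWT5, NDKO1 or NDKO2, for Mrpl16 without NDWT3 or NDKO3, for Mrpl1 without NDWT5 or NDKO1, and for Mrps22 without NDKO1.

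The genotypes were compared in the same way on CDAHFD. Between HFKO and HFWT limma called 0 members, where 0.496% of all genes were called, and the members' median was -0.05 against -0.10 for all genes. At the FDR alone 0 members were higher (0.255% of all genes) and 0 lower (0.868%), while an unadjusted p below 0.05 gave 0 higher and 8 lower (2.97% and 14.2% of all genes). The groups did not overlap for Mrpl13 and Mrpl33, against 4.98% of all genes, and for all 75 members the interval lay within ±0.58 (65.9% of all genes). Log2 fold changes ran from -0.33 for Mrpl21 to 0.18 for Mrpl28. Mrps36 had -0.06, Mrps22 -0.01 and Mrps25 -0.18. The interaction values above test the difference between the diets for Mrps36 and Mrps22, and that of Mrps25 was 0.23 (FDR = 0.513). The 4 members on chromosome 2, which also carries Thbs1, had small values: Mrps5, 9.48 Mb from Thbs1, had 0.00 on normal diet and -0.07 on CDAHFD, Mrps26, 12.45 Mb away, -0.04 and -0.12, Mrps2 0.12 and 0.09, and Mrpl41 -0.04 and -0.02.

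Some mitoribosome subunits have other names and are not among the members. Of 7 such genes Dap3, a GTP-binding small subunit protein first known from cell death, rose in WT from 4.77 ± 0.273 to 7.25 ± 0.631 FPKM (log2 fold change 0.59, FDR = 6.01e-07) and had 0.31 in the null (FDR = 7.83e-04). Ptcd3, Chchd1, Aurkaip1 and Gadd45gip1 had 0.01, 0.23, 0.18 and 0.24 in WT and -0.01, 0.07, 0.12 and 0.16 in the null, none a DEG. Ict1, the gene now named Mrpl58, a peptidyl-tRNA hydrolase that rescues stalled ribosomes, had 0.43 and 0.25, and Mrp63, now Mrpl57, 0.39 and 0.46, none past the fold threshold. The 1 DEG in WT and 0 in the null stand beside 44.1% and 41.9% of all tested genes that rose.

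Further genes build and serve the mitoribosome. Of 26 assembly and rRNA modification genes 6 rose in WT and 3 in the null, where 44.1% and 41.9% of all tested genes rose. In this list 0 fell, where 4.62% and 4.00% of all genes did. Mettl15, which methylates the small subunit rRNA, rose by 0.92 in WT (FDR = 4.83e-06) and 1.30 in the null (FDR = 5.95e-08). Rpusd4, a pseudouridine synthase, rose by 0.66 and 0.81. Mpv17l2, a large subunit assembly factor, rose by 0.73 in WT and had 0.37 in the null (FDR = 0.00106). Rpusd3 rose by 0.58 in the null and had 0.33 in WT (FDR = 0.0298). Rnmtl1, the rRNA methyltransferase now named Mrm3, rose by 0.64 in WT (FDR = 4.01e-06) and had -0.14 in the null (FDR = 0.184). Its interaction of -0.77 (FDR = 0.0104) was the only one called in this list. Among 13 translation factors 2 rose in WT and 3 in the null (44.1% and 41.9% of all tested genes). Mtfmt, which formylates the initiator methionine, rose by 0.81 and 0.88. Tsfm, an elongation factor, rose by 0.71 and 0.97, and Mtrf1, a release factor, by 0.60 in the null.

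Of 17 mitochondrial aminoacyl tRNA synthetases 3 rose in WT, Pars2 (1.09), Tars2 (0.65) and Rars2 (0.62), and 4 in the null, among them Pars2 (0.99), Cars2 (0.69) and Aars2 (0.65). Of all tested genes 44.1% rose in WT and 41.9% in the null, and 4.62% and 4.00% fell. Among 10 genes of mitochondrial transcription and RNA stability 0 rose, and Tfb2m, the factor that opens the promoter for the mitochondrial RNA polymerase, fell in the null from 10.5 ± 0.772 to 6.98 ± 0.806 FPKM (-0.58, FDR = 4.00e-06). Median of ratios scaling lowers all these values, by construction, by about the shift of the typical gene given above.

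Of 9 regulators of mitochondrial genes 4 rose in WT and 2 in the null, where 44.1% and 41.9% of all tested genes rose. In this list 0 fell, where 4.62% and 4.00% of all genes did. Median of ratios scaling lowers these values too, by about the shift given above. Myc rose from 1.22 ± 0.437 to 7.46 ± 1.80 FPKM in WT (log2 fold change 2.54, FDR = 3.22e-09) and from 2.88 ± 0.742 to 7.84 ± 1.24 in the null (1.44, FDR = 6.56e-06). Ppargc1a, the coactivator PGC-1α, was at 1.16 ± 0.504, 2.84 ± 0.68, 1.99 ± 0.394 and 2.26 ± 0.563 FPKM in NDWT, NDKO, HFWT and HFKO. It rose on CDAHFD in WT (0.81, FDR = 0.00597) and had -0.31 in the null (FDR = 0.257; interaction -1.12, FDR = 0.124). Nrf1 rose in WT (0.69, FDR = 1.11e-06), with 0.20 in the null (interaction -0.50, FDR = 0.0627), and Pprc1, a relative of PGC-1α, rose in both (0.99 and 0.62). On normal diet Ppargc1a (1.28, FDR = 0.00219) and Myc (1.20, FDR = 0.00152) were higher in the libraries labelled null. They were the 2 DEGs of this list of 9, where 4.77% of all tested genes were called.

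Members whose promoter window held the NRF1 letters had median log2 fold changes of 0.13 in WT and 0.08 in the null (15 members), against 0.23 and 0.25 for the matched members without them. For the ETS letters the medians were 0.23 and 0.27 with (24 windows) and 0.16 and 0.20 without, and for YY1 0.17 and 0.20 with and 0.19 and 0.24 without. These are medians of small sets with no test. Mrpl46 and Mrps11 are the only members that neighbor each other, in opposite orientation on chromosome 7 with 412 shared bases. They are named after their values were seen: Mrpl46 had log2 fold changes of 0.33 in WT and 0.37 in the null, and Mrps11 0.36 and 0.57, all past the FDR and none past the fold threshold.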

How the data were processed

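Poly(A) RNA from the livers of 20 male mice was made into stranded libraries and sequenced in pairs. Per the submitters' processing notes reads were aligned with STAR 2.5.2 and counted per gene with featureCounts of Subread 1.5.1. The notes list a human build, while the coordinates in the table are those of mouse GRCm38. The authors deposited FPKM, normalised to gene length and library size, for 38924 genes, and no other column was used. The strand setting of the counting is not given in the sources used here. Whole fragments were recovered from the FPKM steps in every library and gave the depths. No 2 libraries of the same group agreed within counting noise.

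FPKM were tested with limma 3.58.1 (lmFit and eBayes with trend, all 4 groups in 1 fit) on log2(FPKM + 0.1), for genes above 0.5 FPKM in at least 5 libraries. Fold changes are on this scale, which understates those of low genes. The FDR is Benjamini-Hochberg over all tested genes, and DEGs had an FDR below 0.05 and an absolute log2 fold change above 0.58. The fit was checked on simulated data. Members and lists were chosen with earlier results of these data known. Named members were those called, the 5 highest and 5 lowest fold changes in each diet comparison, the 5 highest and 5 lowest levels, members that failed the filter, and those with a particular role or on chromosome 2. Other members are marked where named. From the other mitochondrial lists at most 4 DEGs with the lowest FDR were named per comparison. Nothing in the labels ties replicate numbers to shared litters, batches or days, and p-values measure the spread between mice of a group. Alternatives covered the pseudocount, the filter, the scaling, the fold threshold, the trend, the replicate block, fits of only the groups compared and leaving out each library. Python 3.11.15, pandas 2.3.3, numpy 2.4.6, scipy 1.17.1 and matplotlib 3.10.9 were used beside R 4.3.3.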

Additional observations from a re-analysis of the deposited data

Results flagged for a closer look

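Among members that were DEGs or passed the FDR with a lower value, the lowest library stood far from the other 4 of its group for 2. The FPKM of Mrpl52 in NDKO5 was 51.3, with a gap to the next NDKO library of 0.71 of the group's range. The FPKM of Mrpl47 in HFWT1 was 1.94, with a gap of 0.771 of the range in HFWT. Over all tested members 11 of 300 groups stood apart in this way, or 3.67%, where chance alone gives about 1 in 20.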

How the results depend on the processing

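The count of members that rose on CDAHFD in WT was 3 and became 0 after median of ratios scaling, 0 after quantile normalization and 37 with no fold threshold. The count that fell in WT was 0 and became 8, 7 and 1 under these settings. In the null 4 rose, which became 0, 0 and 46, and 0 fell, which became 11, 7 and 3. Between NDKO and NDWT 0 were called, and 9 with no fold threshold. The members' median relative to all tested genes was -0.34 in WT, and -0.21 with a pseudocount of 1, -0.19 with no filter and -0.17 after quantile normalization. In the null it was -0.26, and -0.13, -0.10 and -0.13 under the same settings. On normal diet it was 0.007, and -0.045 with no filter. The log2 fold change of Mrps25 in the null was -0.21 after quantile normalization (FDR = 0.0677), against 0.66 as deposited. The cause was not tested, beyond that scaling centres the typical gene.

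Leaving out 1 library at a time gave 2 to 5 members that rose in WT (5 without HFWT2) and 3 to 7 in the null (7 without NDKO2), 0 that fell in either, 0 to 1 called on normal diet, and 0 called on CDAHFD or in the interaction. The relative medians ranged from -0.358 to -0.32 in WT, -0.302 to -0.206 in the null, -0.016 to 0.026 on normal diet, 0.013 to 0.089 on CDAHFD and -0.003 to 0.074 in the interaction. With the replicate number as a block, the counts were 3 and 0 in WT, 4 and 0 in the null and 0 in the other comparisons, and the FDR of Mrpl52 (0.065) and Mrpl39 (0.0546) on normal diet no longer passed. Same-numbered mice did not deviate together (correlations of -0.133 to 0.081). The values thus gave no sign of a pairing, though they cannot exclude shared litters, batches or days. Mrps36 rests on as few as 40 fragments in a library, the fewest of a tested member, which limits its precision.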
